A study of Mus musculus with 6 samples.

Results

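ATF4 target and serine synthesis genes are described here as 10 genes fixed by name: the transcription factor gene Atf4, its targets Ddit3, Trib3, Sesn2, Chac1, Slc7a11 and Asns, and the serine synthesis genes Phgdh, Psat1 and Psph. All 10 had a row among the 19353 genes of the deposited table, and all 10 passed the filter on low counts. They were measured in wild-type primary mesenchymal stem cells from mouse bone marrow, the stromal progenitors of bone, fat and cartilage cells. Every sample received osteogenic induction with dexamethasone (100 nM), ascorbic acid (50 µM) and β-glycerophosphate (10 mM) in medium with 10% serum. The MCH group (3 samples) was given 0.5 µM melanin-concentrating hormone in addition, a hypothalamic neuropeptide that acts through G protein-coupled receptors, and the Control group (3 samples) was not. Induction lasted 9 days by the sample titles but 8 by the series design, and no strain, age or number of animals is given. Since nothing shows that replicates were separate animals or separate cultures, their spread, on which all p-values rest, may be technical.

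ATF4 is the main transcription factor of the integrated stress response. Kinases that sense lack of amino acids, haem deficiency, viral RNA or misfolded protein phosphorylate the initiation factor eIF2, general translation falls, and short upstream reading frames in the Atf4 mRNA then favour translation of ATF4 itself. The protein, whose amount cannot be read from its mRNA, activates genes for amino acid import, asparagine and serine synthesis and glutathione metabolism. In the osteoblast lineage ATF4 is known as a factor needed for mature bone-forming cells and for their supply of amino acids.

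ATF4 binds with C/EBP partners to a composite DNA element, and the letters TGATGNAA, a core of that element, were looked for on both strands of RefSeq promoter windows (build GRCm38.p6, 250 bases before to 50 after each gene's start). All 10 genes were matched by symbol to a window, and 4 of them, Asns, Chac1, Slc7a11 and Trib3, held a match. Of all 32851 windows in the RefSeq table, 3.97% did. The stretches with a match are shown because they carry these letters, which alone do not identify an ATF4 target, and no binding was measured. Capitals mark the match, and each stretch runs 5′ to 3′ along the gene's strand.
Slc7a11, chr3:50443614-50443723, minus strand: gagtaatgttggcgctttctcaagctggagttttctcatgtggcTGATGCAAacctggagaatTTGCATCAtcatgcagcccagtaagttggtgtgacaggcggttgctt
Chac1, chr2:119350992-119351096, plus strand: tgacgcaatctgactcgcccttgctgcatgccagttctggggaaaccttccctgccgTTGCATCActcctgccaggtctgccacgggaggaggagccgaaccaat
Asns, chr6:7693210-7693319, minus strand: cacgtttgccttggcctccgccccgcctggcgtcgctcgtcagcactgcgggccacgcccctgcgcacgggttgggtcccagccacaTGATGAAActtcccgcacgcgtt
Trib3, chr2:152344028-152344057, minus strand: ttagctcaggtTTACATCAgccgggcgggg
Slc7a11 held 2 matches, at -66 to -59 on its own strand and at -47 to -40 on the other. The Asns match lay at -23 to -16 on its own strand, the Chac1 match at -193 to -186 and the Trib3 match at 15 to 22 on the other strand, counted from the RefSeq start as position 1 with the base before it as -1. In the other 6 genes these letters were not found within the window, which says nothing of ATF4 binding there or outside it.

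With MCH, 6 of the 10 genes rose and none fell: Slc7a11, Psph, Phgdh, Trib3, Asns and Chac1, by 1.30-fold to 1.44-fold (edgeR quasi-likelihood test on counts, Benjamini-Hochberg adjusted p under 0.05 over all 13662 genes tested). Over all genes tested, 3.64% were called higher and 5.40% lower. Atf4 itself, Ddit3, Psat1 and Sesn2 did not pass. In 9 of the 10 genes, all but Sesn2, every MCH library lay above every Control library, as in 16.1% of all genes tested. The median log2 fold change of the 10 genes was 0.38, against 0.002 for all genes tested. The 10 genes were chosen with earlier results of these data known, so their distance from all genes is a description and not a test. The 75th and 95th percentiles of all log2 fold changes were 0.18 and 0.47. Of the 10 genes, all but Sesn2 lay above the first, and Slc7a11 and Psph also above the second. None of the 10 genes was lower at an unadjusted p under 0.05, and 9 were higher. The largest edgeR p of these 9 was that of Psat1 (0.0319), at rank 2996 by p among all 13662 genes tested. That rank counts genes that moved in either direction, so an unadjusted p under 0.05 was common. Counts at this threshold, here and below, are given without a share over all genes and do not set these genes apart from the rest.

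**Figure D1:**
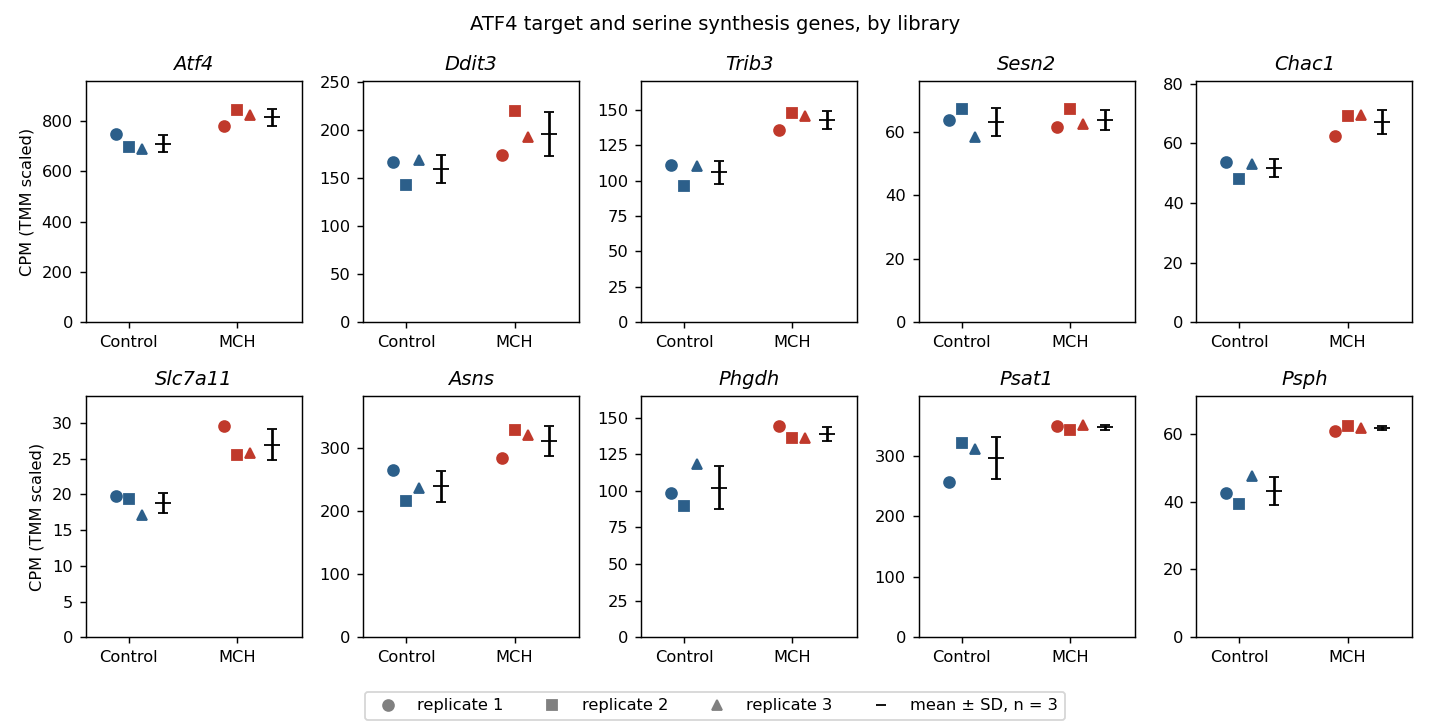
Scaled counts (CPM, TMM scaled; y axes start at 0 and differ between panels) of the 10 genes in each library, with symbols for replicates 1 to 3 and the mean ± SD of 3 libraries in black. The MCH libraries (red) lie above the Control libraries (blue) in every panel but that of Sesn2.

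Atf4 was the most abundant of the 10 mRNAs. Its level was 778, 842 and 822 CPM (counts scaled to a common library size) in MCH replicates 1 to 3, and 747, 695 and 687 CPM in Control replicates 1 to 3. The groups did not overlap, but MCH replicate 1 and Control replicate 1 lay close to each other. The log2 fold change was 0.20 ± 0.07 (SE; 95% interval 0.04 to 0.35; adjusted p = 0.107), which missed the threshold. Atf4 lies at chr15:80255184-80257540 on the plus strand (GRCm38).

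Ddit3 encodes CHOP, a transcription factor that partners with ATF4 and can promote cell death under lasting stress. It stood at 174, 220 and 193 CPM in the MCH libraries and at 166, 143 and 168 CPM in Control. MCH replicate 1 lay just above the highest Control library, and MCH replicate 2 stood highest. The log2 fold change was 0.30 ± 0.10 (95% interval 0.06 to 0.53; adjusted p = 0.110) and did not pass. With offsets for gene length and GC content it was 0.14. Ddit3 (chr10:127290774-127296288, plus strand) shares 186 of its 1713 annotated exon bases with other annotated genes. Among them are Mars on the opposite strand, whose log2 fold change was 0.09 ± 0.06, and another entry named Ddit3 on the same strand. Without a stated strand setting, reads of Ddit3 and Mars cannot be told apart there. A strand setting would not separate the other Ddit3 entry.

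Trib3, a pseudokinase induced by ATF4 and CHOP that restrains ATF4 activity and AKT, was one of the 6 that rose. It stood at 135, 147 and 145 CPM with MCH and at 111, 96.5 and 110.1 CPM in Control. The means were 143 ± 6.52 and 106 ± 8.19 CPM (SD, n = 3), and the gap between the groups was wider than the spread within either. On the log2 scale Trib3 rose by 0.43 ± 0.07 (adjusted p = 0.0150). Trib3 lies at chr2:152337422-152344032 on the minus strand.

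Sesn2, a leucine-binding protein that restrains the growth kinase mTORC1 and a target of both ATF4 and p53, was the exception. Its level was 61.3, 67.0 and 62.4 CPM with MCH and 63.5, 67.0 and 58.2 CPM in Control. The groups overlapped fully. Its log2 fold change was 0.02 ± 0.08, with a 95% interval from -0.17 to 0.20 (adjusted p = 0.921), so a fold change above 1.15 lies outside the interval. Sesn2 lies at chr4:132492032-132510501 on the minus strand.

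The genes of cystine import and glutathione breakdown both rose. Slc7a11 encodes the transporter that brings in cystine in exchange for glutamate, the source of cysteine for glutathione. It stood at 29.6, 25.6 and 25.9 CPM with MCH and at 19.8, 19.3 and 17.2 CPM in Control, and here MCH replicate 1 was the highest library. Its log2 fold change was 0.53 ± 0.10 (adjusted p = 0.0207). The call was lost in both limma fits on FPKM. Its value was 0.30 on log2(FPKM + 1) (adjusted p = 0.0578), a scale that understates changes of low genes, and 0.48 on log2(FPKM + 0.1) (adjusted p = 0.0670). Chac1, an enzyme that breaks down glutathione, stood at 62.6, 69.2 and 69.6 CPM with MCH and at 53.7, 48.2 and 53.1 CPM in Control. MCH replicate 1 was the lowest of its group for Chac1 but still above all Control libraries. Chac1 rose by 0.38 ± 0.08 on the log2 scale (adjusted p = 0.0285). Slc7a11 lies at chr3:49892526-50443614 on the minus strand and Chac1 at chr2:119351229-119354381 on the plus strand.

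Asns, which makes asparagine from aspartate and glutamine, stood at 285, 330.0 and 322 CPM with MCH and at 265, 216 and 238 CPM in Control. MCH replicate 1 lay nearest to Control replicate 1, and the other libraries were further apart. The log2 fold change was 0.38 ± 0.09 (adjusted p = 0.0433), the nearest to the threshold of the 6 that passed; the call was not made by limma-voom or by the non-robust fit. Asns lies at chr6:7675169-7693254 on the minus strand.

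Of the 3 enzymes that make serine from a glycolytic intermediate, the first and the last rose and the middle one did not pass. Phgdh, which catalyses the first step, stood at 144, 136 and 136 CPM with MCH and at 98.6, 89.8 and 118 CPM in Control. Control replicate 3 stood above the other Control libraries, and the groups did not overlap. Phgdh rose by 0.44 ± 0.10 on the log2 scale (adjusted p = 0.0352). Psat1, the aminotransferase of the second step, stood at 349, 343 and 351 CPM with MCH and at 257, 322 and 312 CPM in Control. Its MCH libraries were nearly equal, while Control replicate 1 lay below the other Control libraries. The log2 fold change was 0.23 ± 0.09 (95% interval 0.03 to 0.43; adjusted p = 0.145), and 0.14 without Control replicate 1. Psph, the phosphatase of the last step, stood at 61.0, 62.3 and 61.8 CPM with MCH and at 42.6, 39.4 and 47.7 CPM in Control. Its means of 61.7 ± 0.703 and 43.2 ± 4.20 CPM (SD, n = 3) were further apart than the libraries of either group, with a log2 fold change of 0.51 ± 0.09 (adjusted p = 0.0135), the smallest adjusted p of the 10. Psph shares 452 of its 4329 annotated exon bases with Cct6a on the opposite strand, which also rose (0.33 ± 0.06, adjusted p = 0.0221), and its reads there cannot be told from those of Cct6a. Phgdh lies at chr3:98313170-98339990, Psat1 at chr19:15904678-15947337 and Psph at chr5:129765558-129787449, all on the minus strand. The difference in response between the 3 enzymes was not tested.

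**Figure D2:**
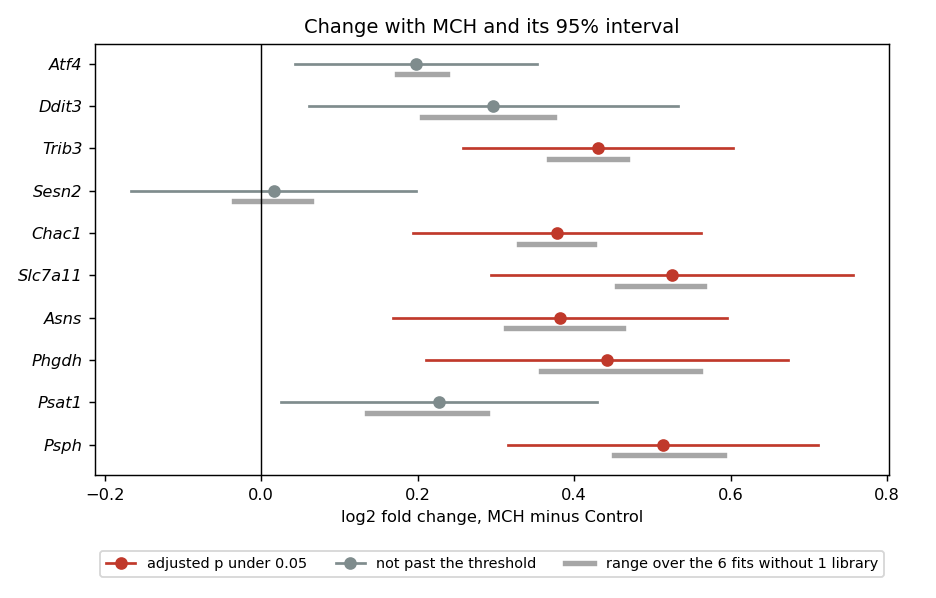
Log2 fold change of each gene, MCH minus Control (x axis), with its 95% interval as a thin line and, as a thick grey line, the range over the 6 fits that leave out 1 library; red genes passed the threshold. The 6 red intervals lie above 0, as do those of Atf4, Ddit3 and Psat1, and that of Sesn2 spans 0.

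Leaving out a single library ended several calls. With MCH replicate 3 left out, none of the 10 genes was called (edgeR, 7 at an unadjusted p under 0.05; adjusted p from 0.0609 for Psph to 0.148 for Asns among the 6 genes that rose), and 65 genes of the whole table were called higher in place of 497. The log2 fold changes of the 6 genes were then 0.35 to 0.56. Without MCH replicate 2, only Psph and Slc7a11 passed; without Control replicate 2, only Trib3 and Psph; without Control replicate 3, Trib3, Phgdh and Psph; and without Control replicate 1, Trib3, Asns, Psph and Slc7a11. Over all genes tested, 0.834%, 0.795%, 0.765% and 2.06% were called higher in these fits, in the same order, against 3.64% with all libraries. Without MCH replicate 1, Phgdh was lost and Ddit3 gained (edgeR adjusted p = 0.0455), with 5.19% of all genes called higher. Psph thus passed in 5 of these 6 fits, Trib3 in 4, Slc7a11 in 3, Asns in 2 and Chac1 and Phgdh in 1 each. In the authors' deposited table none of the 10 genes was marked as changed, with q-values from 0.0572 for Psph to 1 for Sesn2; no source used here names the test behind them.

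The libraries did not order the 10 genes alike. Against the mean of the Control libraries, the median log2 difference over the 10 genes was 0.27 in MCH replicate 1, 0.43 in MCH replicate 2 and 0.43 in MCH replicate 3. MCH replicate 2 held the highest value of 6 genes, MCH replicates 1 and 3 of 2 each, and Control replicate 2 held the lowest value of 6. For Phgdh and Slc7a11, MCH replicate 1 was the highest library (0.51 and 0.66 above the Control mean on the log2 scale), whereas for Atf4, Ddit3, Trib3, Chac1, Asns, Psph and Sesn2 it was the lowest of its group. Phgdh, Psph and Ddit3 shared the same order of Control libraries, with replicate 3 highest and replicate 2 lowest, while in Psat1 replicate 1 was lowest.

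**Figure D3:**
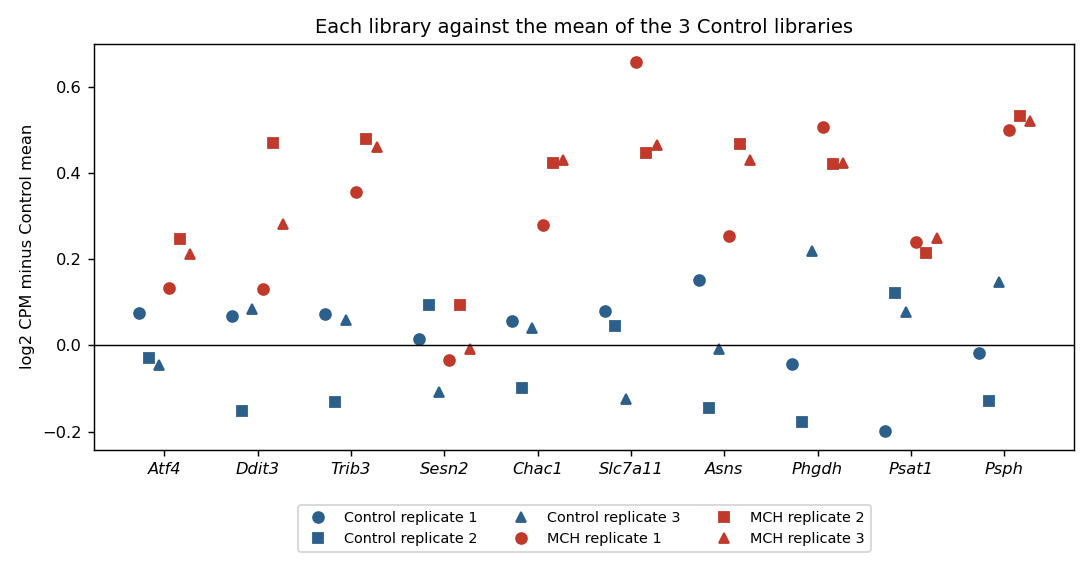
Log2 CPM of each library minus the mean of the 3 Control libraries (y axis) for each gene (x axis), with blue symbols for Control and red for MCH. MCH replicate 1 (red circles) is the highest library for Slc7a11 and Phgdh and the lowest MCH library for 7 of the other 8 genes.

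Levels of different genes were compared per length, as FPKM, in which reads are scaled to gene length and library size. The lengths behind the deposited FPKM are not stated, and the order of genes depends on them. With MCH, Psph and Sesn2 stood at 61.7 and 63.6 CPM but at 9.56 and 18.2 FPKM. Their longest annotated transcripts have 2877 and 3475 bases. In Control, Atf4 stood first at 413 ± 13.0 FPKM (SD, n = 3), followed by Ddit3 (69.3 ± 5.50), Asns (64.0 ± 5.57), Psat1 (42.8 ± 5.62), Phgdh (35.7 ± 5.08), Trib3 (33.5 ± 2.22), Chac1 (31.6 ± 1.50), Sesn2 (18.2 ± 1.37), Psph (6.75 ± 0.651) and Slc7a11 (1.20 ± 0.0830). The order of the group means was the same with MCH. Ddit3 and Asns overlapped between libraries in both groups, as did Psat1 and Phgdh; Phgdh and Trib3, and Trib3 and Chac1, overlapped in Control but not with MCH. The last serine enzyme was thus the least abundant mRNA of the 3 in every library, at 6.23 to 7.48 FPKM in Control and 9.51 to 9.65 FPKM with MCH.

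Around these genes, 6 lists of 109 distinct genes were read from the same fit, and 104 were tested. Of these 19 rose and none fell, or 18.3%, against the 3.64% of all genes called higher; their median log2 fold change was 0.14. Of the genes not called, 6 were lower at an unadjusted p under 0.05. The lists were chosen with earlier results of these data known, and 4 genes stand in more than 1 list.

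Among other ATF4 targets, 10 of 38 rose and none fell (median 0.15). By p, 3 amino acid transport genes and Rcan1 led the list. Slc3a2, the heavy chain that pairs with Slc7a11 and Slc7a5, rose from 409 ± 6.05 to 547 ± 29.4 CPM (log2 fold change 0.42 ± 0.06, adjusted p = 0.00901). Slc7a5, the large neutral amino acid transporter, rose by 0.44 ± 0.07, the glutamine transporter Slc1a5 by 0.41 ± 0.06, and Rcan1, a regulator of calcineurin, by 0.42 ± 0.07. Other amino acid transport genes of the list, named after their values were seen, did not all move: Slc7a3 rose by 0.46 ± 0.09, while Slc6a9 (0.23 ± 0.15), Slc7a1 (0.10 ± 0.09), Slc1a4 (-0.04 ± 0.07) and Slc38a2 (0.0008 ± 0.08) did not pass. Slc7a5 and Slc1a5 kept their calls in all 6 fits without 1 library, Slc3a2 in 5 (not without MCH replicate 3, adjusted p = 0.0560) and Rcan1 in 3. Among genes that use serine and glycine, 3 of 13 rose and none fell (median 0.14). These were the mitochondrial enzymes Mthfd2 (0.29 ± 0.06) and Shmt2 (0.25 ± 0.06), and Mthfd1 (0.31 ± 0.07), which moves one-carbon units in the cytosol; Shmt1 had a log2 fold change of 0.37 ± 0.10 (adjusted p = 0.0566). Mthfd2 kept its call in 2 of the 6 fits without 1 library and lost it with the length and GC offsets (adjusted p = 0.0665), and Mthfd1 and Shmt2 in 1. Of 11 glutathione genes 1 rose, Slc3a2, which is also in the list of other targets; the glutathione synthetase gene Gss had 0.41 ± 0.11 (adjusted p = 0.0556), Chac2 0.35 ± 0.17 (0.13 with the length and GC offsets and 0.21 without Control replicate 3) and the glutathione reductase gene Gsr 0.16 ± 0.08 (0.11 without MCH replicate 1).

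Genes upstream of ATF4 and genes of its partners were read in the same way. Of 14 genes for the eIF2 kinases, eIF2 itself, its exchange factor, its phosphatase and the mitochondrial stress relay, 2 rose and none fell (median 0.08). Eif2ak2, the kinase that senses double-stranded RNA, rose from 69.8 ± 3.05 to 89.9 ± 2.22 CPM (0.37 ± 0.06, adjusted p = 0.0152), and Eif2s1, the subunit that is phosphorylated, rose by 0.24 ± 0.06 (adjusted p = 0.0489). Eif2ak3, the endoplasmic reticulum kinase PERK, had a log2 fold change of -0.34 ± 0.10 (adjusted p = 0.0734) and the exchange factor subunit gene Eif2b1 0.27 ± 0.07 (adjusted p = 0.0606). Eif2ak2 kept its call in 3 of the 6 fits without 1 library and Eif2s1 in 1. The Eif2s1 call was also lost with upper-quartile scaling, limma-voom, no low-count filter, the non-robust fit and the length and GC offsets (0.16, adjusted p = 0.0881). Of 9 genes listed around ATF4, mostly its partners and regulators, 1 rose. This was Atf5, a related stress factor (0.31 ± 0.06, edgeR adjusted p = 0.0215), called in 2 of the 6 fits without 1 library. Nupr1 had 0.40 ± 0.12 (adjusted p = 0.0789), Fgf21 0.74 ± 0.24 at 3.68 CPM with MCH (adjusted p = 0.0928), and Atf3, which is often induced with ATF4, -0.20 ± 0.08 (adjusted p = 0.171).

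In the other arms of the unfolded protein response, those of ATF6 and XBP1, 5 of 22 genes rose and none fell (median 0.17). Hsp90b1, an endoplasmic reticulum chaperone, rose by 0.50 ± 0.07 (adjusted p = 0.00901), the disulfide isomerase genes Pdia6 by 0.37 ± 0.07 and Pdia3 by 0.40 ± 0.10, and Calr, the lectin chaperone calreticulin, by 0.38 ± 0.08. Hsp90b1 kept its call in 5 of the 6 fits without 1 library, Pdia6 and Calr in 2 and Pdia3 in 1. Whether the 10 genes moved differently from these lists was not tested.

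**Figure D4:**
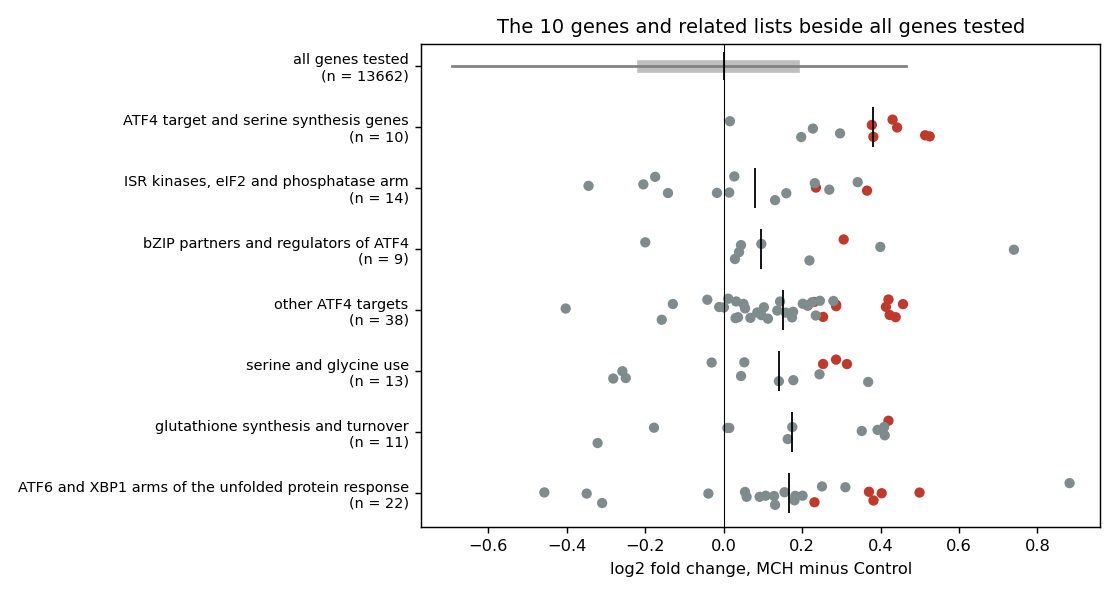
Log2 fold change, MCH minus Control (x axis), of the 10 genes and of each related list, 1 point per tested gene (red where adjusted p is under 0.05), with a black bar at the list median. The top row gives all 13662 genes tested as the 5th to 95th percentile (line), the 25th to 75th percentile (band) and the median. The median of the 10 genes lies at 0.38 and those of the lists between 0.08 and 0.18.

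The libraries held 16521980 to 18803949 counted reads. In these bulk samples, fewer cells of a type and less RNA per cell cannot be told apart. Stromal markers were present and lower in sum with MCH (979 to 1123 against 1611 to 1731 CPM over 9 genes). Ly6a, the most abundant, stood at 533 and 997 CPM, and Cxcl12 was nearly level at 183 and 195 CPM. Ly6a (log2 fold change -0.90 ± 0.11), Pdgfra (-0.69 ± 0.07), Pdgfrb (-0.84 ± 0.08) and Nt5e (-0.74 ± 0.18) passed the threshold as lower, and the other stromal markers did not pass. Osteoblast markers were also lower in sum (4183 to 4597 against 6072 to 6734 CPM over 6 genes), most of it Col1a1 (3813 and 5172 CPM). Alpl, Spp1 and Col1a1 passed the threshold as lower, with log2 fold changes of -1.28 ± 0.08, -1.06 ± 0.06 and -0.44 ± 0.08. Runx2 did not pass (-0.24 ± 0.07), and the osteoblast genes Sp7 and Bglap had at most 4 counts. Markers of leukocytes and macrophages summed to 47.6 to 82.1 CPM with MCH and 38.0 to 45.2 CPM in Control over 10 genes, most of it Cd68. Ptprc, Itgam and C1qa had at most 2, 6 and 3 counts, and the other 6 genes of the list beside Cd68 were all highest in MCH replicate 3. There Adgre1 had 50 counts (0 to 11 elsewhere), C1qb 31 (0 to 9), C1qc 27 (0 to 4), Ctss 92 (5 to 23), Lyz2 176 (52 to 110) and Csf1r 95 (43 to 51). Cd68 had 690, 765 and 934 counts with MCH and 549 to 606 in Control. Without MCH replicate 3 none of the 10 genes was called. The log2 fold changes of the 6 genes that rose were then 0.35 to 0.56. Over the whole table, 65 genes were called higher in that fit, in place of 497. Endothelial markers summed to 2.48 to 4.93 and 3.20 to 4.24 CPM over 4 genes, adipocyte markers to 45.4 to 61.2 and 66.3 to 74.8 CPM over 5, mostly Fabp4, and the 1 erythroid gene with a row had at most 2 counts. The part of these differences in the changes of the 10 genes was not tested.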

How the data were processed

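Polyadenylated RNA of 3 MCH and 3 Control samples was sequenced. The authors deposited 1 table that gives, per the file headers, whole-number read counts and FPKM for each gene and library, group means of FPKM, and p-values and q-values from their own comparison. The submitters' processing notes name GRCm38 (mm10) as the build. For the aligner, counter, annotation release and strand setting: not given in the sources used here. Columns without MCH in their names were taken as Control, and every direction rests on these names; in the authors' deposited table, UP (212 genes, against 31 DOWN) marks genes with the higher mean in those columns. Gene names follow the table, and lists were matched through GENCODE M21 (99.5% of IDs).

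The counts went into edgeR 4.0.16 (R 4.3.3) with TMM scaling and filterByExpr (minimum count 10, minimum total 15), which kept 13662 genes and left out 5691. A robust quasi-likelihood model on group gave two-sided tests, adjusted by Benjamini-Hochberg over all genes kept. Each SE is the coefficient without shrinkage over the root of F. The 10 genes and all lists were chosen with earlier results of these data known. Named genes are the 10, up to 4 genes of smallest p per list, the highest and near-absent markers, and markers that passed as lower. Within a group, any 2 libraries differed beyond counting noise (chi-square over its degrees of freedom 14.9 to 25.4), and none was treated as a copy. The edgeR fit described above was also run on simulated counts. The outcome of that run is not given here, so it does not bear on changes of the size reported or on the alternative fits. As alternatives, scaling was by RLE or upper quartile, the tool was DESeq2 1.42.0 or limma-voom (limma 3.58.1), and the filter was dropped or raised to 30 counts. Also tried were limma on log2(FPKM + 1) and log2(FPKM + 0.1), a fit without robust moderation, offsets for length and GC content (known for 99.6% of tested genes), the replicate number as a block and the removal of each library in turn.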

Additional observations from a re-analysis of the deposited data

How the results depend on the processing

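All 10 log2 fold changes stayed above 0 under every scaling, filter, tool and offset tried. Over the 6 fits without 1 library, Sesn2 ran from -0.0351 to 0.0638, below 0 without MCH replicate 2 (-0.02) and without Control replicate 3 (-0.0351); the other 9 genes stayed above 0. The count of 6 genes called was 6 under RLE and upper-quartile scaling, DESeq2, both other filters and the length and GC offsets, and 5 under limma-voom and the non-robust fit (without Asns) and both FPKM fits (without Slc7a11). Related genes called higher, 19 as reported, numbered 14 to 22 under these settings. Of all genes tested, 2.7% (no low-count filter) to 5.17% (DESeq2) were called higher under them, against 3.64% as reported. Over the 6 fits without 1 library, 0 to 6 of the 10 genes were called, with 0.468% to 5.19% of all genes called higher. Genes called over the whole table in these fits ran from 65 to 722 higher and 256 to 867 lower. Related genes ran from 2 to 19 higher and 0 to 1 lower. These fits hold fewer samples, and in each the smaller group is assumed to vary like the other.

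Libraries with the same replicate number did not deviate together from their group means (correlations of -0.161, -0.0386 and -0.0138), so the number was not taken to pair them. With the replicate number as a block, 28 genes were called higher (0.205% of all genes tested) and 151 lower. Among them were 0 of the 10 genes (6 at an unadjusted p under 0.05) and 0 related genes. With the block and the length and GC offsets, the counts were 64 higher (0.47%) and 209 lower. Of the 10 genes 1 was then called (Trib3), and 4 related genes were higher. The number of libraries limits the precision: with 3 a group, the 95% interval of Sesn2 still allows changes of up to 1.15-fold.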

Other observations

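The best known endoplasmic reticulum stress gene, Hspa5, which encodes the chaperone BiP, could not be read as a group difference. It had 16976, 43183 and 40638 counts in MCH replicates 1 to 3 and 27435, 13489 and 12932 in Control replicates 1 to 3, and its log2 fold change of 0.88 ± 0.54 did not pass (edgeR adjusted p = 0.375). Gpx1, a glutathione peroxidase, had 5817, 2208 and 5511 counts with MCH and 7303, 806 and 1863 in Control. Sel1l, of the degradation pathway of the endoplasmic reticulum, had 942, 1806 and 275 with MCH and 1361, 746 and 1587 in Control. These 3 were the related genes, of 98 with a mean of at least 100 counts, whose libraries differed by over 2-fold within a group; they were chosen after their values were seen. Over the whole table this held for 677 of 10489 genes (6.45%). None of the 10 ATF4 target and serine synthesis genes was among them: their highest library stood 1.09 to 1.32 times above the lowest of the same group, taking for each gene the wider group. The cause of the uneven genes was not tested.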
